A study of Mus musculus with 2 samples.

Results

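Retinoic acid, the active form of vitamin A, is made, bound, sensed and degraded by a small set of proteins, and 9 genes of this set were followed on microarrays of cultured mouse ovary: Rbp4, Stra6, Aldh1a1, Aldh1a2, Aldh1a3, Crabp1, Crabp2, Rarb and Cyp26b1. The genes were chosen by name, with earlier results of these data known. Every probe on the arrays whose RefSeq accession belongs to one of them was taken. This gave 10 probes, of 55674 that are not controls and kept a usable spot on both arrays after outlier spots were left out. The 9 genes stand among 20658 genes that could be named. Rarb had 2 of the 10 probes and each of the other genes had 1. A probe listed under another kind of accession was not matched, so further probes of these genes may be on the array.

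The arrays compared ovaries of 2-week-old mice that had been cut into pieces and cultured for 3 days with ligands of the tachykinin receptors (TKRs). The ligands of the TKR agonist group were synthetic agonists of TACR1, TACR2 and TACR3, and those of the TKR antagonist group were antagonists of the same receptors at the same concentration. Whether a piece of ovary received 1 ligand, with the RNA then pooled, or all 3 together is not settled by the sources used here. The comparison was made to find genes that tachykinins regulate in the immature ovary. There was 1 array per group, the number of ovaries behind each RNA and the strain of these mice are not given in the sources used here, and ovaries cultured without ligand were not analysed here. With 1 array per group the spread between ovaries cannot be estimated, and the comparison carries neither a test nor a p-value. In these bulk samples, a different number of cells of a type and a different amount of RNA per cell cannot be told apart.

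Retinol travels in blood bound to RBP4 and enters cells through the receptor STRA6. Inside the cell retinol is oxidised to retinal, the aldehyde dehydrogenases ALDH1A1, ALDH1A2 and ALDH1A3 oxidise retinal to retinoic acid, CRABP1 and CRABP2 carry the acid through the cytosol, nuclear receptors such as RARB respond to it on DNA, and CYP26 enzymes such as CYP26B1 degrade it. In the developing ovary, retinoic acid is known as a signal for the entry of germ cells into meiosis.

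The signal of a spot is its fluorescence after background subtraction, in the arbitrary units of the scanner software. Of 59305 spots that are not controls, the software marked 65.4% as well above background with the agonists and 61.6% with the antagonists, the lowest such signal was 18.1 and 19.9 units, respectively, and 0 spots were saturated. The markers of oocytes (6 of 6) and of granulosa cells (8 of 8) were well above background on both arrays. Log2 ratios are agonists minus antagonists, after each array was divided by its 75th percentile (672 units with the agonists and 569 with the antagonists), so that a log2 ratio of 1 is a 2-fold higher value with the agonists. Each member probe was printed as 1 spot, and the ± given with a signal or a log2 ratio of a member is the software's own error for the spots, not the spread between ovaries. Signals of different probes are not compared with each other, because probes differ in how strongly they bind.

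All 9 genes were well above background on both arrays. Of the 9, 8 had a log2 ratio above 0, whereas 37.7% of the 15258 named genes well above background on both arrays did. The share over all named genes depends on the scaling: their median log2 ratio was 0.15 without scaling and 0.18 with spike-in controls. The 8 genes stayed above 0 in every setting. Aldh1a3 alone exceeded 2-fold in favour of the agonists, so that the count was 1 of 9, beside 4.01% of all named genes. The count of members lower by 2-fold or more was 0 of 9, a call made for 0.577% of all named genes. The median log2 ratio of the 9 genes was 0.70 and that of all named genes was -0.10 (SD 0.48 across genes). Because the 9 genes were chosen with earlier results of these data known, these contrasts describe the list and are no test. The number higher by 2-fold or more depended on the scaling: it was 4 both without scaling and when spike-in controls set the scale, where Crabp1, Crabp2 and Cyp26b1 joined Aldh1a3, and 2 with the authors' summary values, where Crabp1 did. The same call was made for 6.50%, 6.91% and 4.89% of all named genes in these settings.

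**Figure D1:**
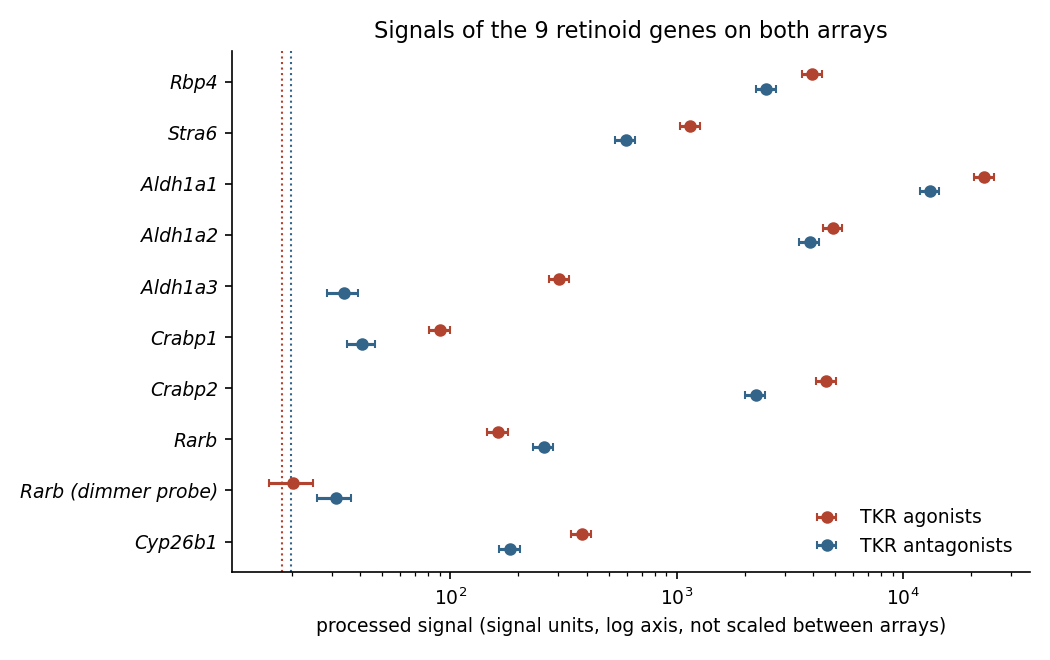
Processed signal of each member probe on both arrays (log axis, signal units before scaling between arrays); bars are the software's error of the spot and dotted lines mark the lowest signal well above background on each array. Both Rarb probes were dimmer on the agonist array and every other probe was brighter there, with the widest gap for Aldh1a3 (303 against 33.8 units).

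The carrier and its receptor were both moderately higher on the agonist array. Rbp4, the plasma carrier of retinol, had a signal of 3968 ± 397 with the agonists and 2487 ± 249 with the antagonists. After scaling this was a log2 ratio of 0.43 ± 0.20, or 1.35-fold, and 12.5% of all named genes had a ratio at least as high. Stra6, whose product takes up retinol from RBP4, had a signal of 1146 ± 115 with the agonists and 595 ± 59.7 with the antagonists, giving a log2 ratio of 0.70 ± 0.20 (1.63-fold). This difference was larger than the error of its spots, and neither gene reached 2-fold under any of the settings tried.

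The 3 genes for retinal dehydrogenases differed widely from each other in their ratios. Aldh1a3 had a signal of 303 ± 30.5 with the agonists and 33.8 ± 5.31 with the antagonists. The agonist spot was 16.7 times and the antagonist spot 1.70 times the lowest signal well above background on its array, so the antagonist value lay close to the limit of detection. The log2 ratio was 2.92 ± 0.27, or 7.57-fold, and 18 of the 15258 named genes (0.118%) had a ratio at least as high. Before background subtraction, the median pixel signal of the spot was 374.5 over a local background of 35 with the agonists and 78 over 43 with the antagonists. With the normexp background correction, which adds an offset of 50 to every signal, the fold was 3.31, and it was above 2 in every setting.

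Aldh1a1, whose product is a cytosolic retinal dehydrogenase, had a signal of 22761 ± 2276 with the agonists and 13131 ± 1313 with the antagonists, giving a log2 ratio of 0.55 ± 0.20 (1.47-fold). Aldh1a2, the main retinoic acid synthesising enzyme of the embryo, had signals of 4899 ± 490 and 3868 ± 387. Its log2 ratio of 0.10 ± 0.20 was smaller than the error of the spots, the one such case among the 9 genes. This group therefore holds both the highest ratio of the 9 genes, that of Aldh1a3, and the one closest to 0, that of Aldh1a2.

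Both genes for cellular retinoic acid binding proteins were higher with the agonists, at just under 2-fold. Crabp2, whose product delivers retinoic acid to nuclear receptors, had a signal of 4572 ± 457 with the agonists and 2232 ± 223 with the antagonists, giving a log2 ratio of 0.79 ± 0.20 (1.73-fold). Crabp1, whose product is linked to the breakdown of retinoic acid, gave dimmer spots, with signals of 90.3 ± 9.84 and 40.7 ± 5.84. Its log2 ratio was 0.91 ± 0.26 (1.88-fold), and with the normexp correction it was 0.17 (1.12-fold). The antagonist spot of Crabp1 was 2.05 times the lowest signal well above background.

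Cyp26b1, whose product hydroxylates retinoic acid for degradation, was also higher on the agonist array. The spot gave 381 ± 38.3 units with the agonists against 183 ± 19.0 with the antagonists. The log2 ratio was 0.81 ± 0.21 (1.76-fold), and 5.79% of all named genes had a ratio at least as high.

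Rarb was the only one of the 9 genes with a lower signal on the agonist array. Its brighter probe had a signal of 163 ± 16.7 with the agonists and 258 ± 26.2 with the antagonists. The log2 ratio was -0.91 ± 0.21, which is 1.88-fold higher with the antagonists, and 134 of all named genes (0.878%) had a ratio at least as low. The other probe of the same transcript accession, NM_011243, had signals of 20.3 ± 4.51 and 31.2 ± 5.33 and a log2 ratio of -0.86 ± 0.40. Its agonist spot was 1.12 times the lowest signal well above background, so this probe adds little precision, but it had the same sign. The log2 ratio of the brighter probe lay between -0.97 and -0.63 under all settings.

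**Figure D2:**
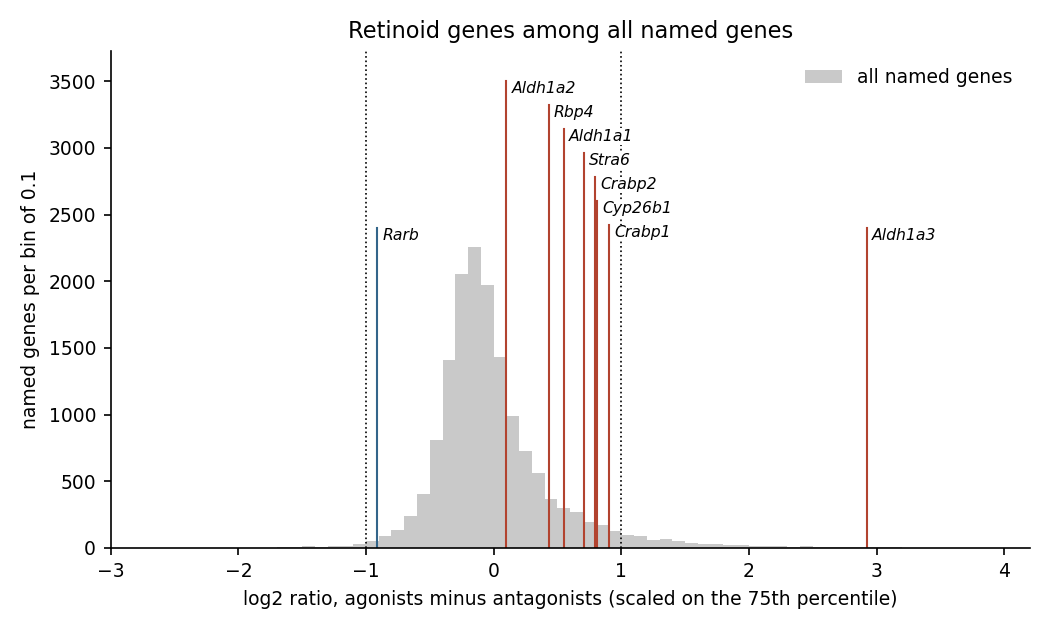
Histogram of the log2 ratios (agonists minus antagonists, bins of 0.1) of the 15258 named genes that both arrays detected, and a vertical line for each of the 9 genes by its brighter probe; dotted lines mark 2-fold in either direction. Rarb (-0.91) lies in the lower tail, Aldh1a3 (2.92) far in the upper tail, and the other 7 genes lie between 0.10 and 0.91.

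Rarb encodes a receptor whose own promoter is a classic target of retinoic acid, so the sequence before its start is shown here. Response elements of the receptors are direct repeats of a 6-base half-site, AGGTCA, and its 4 forms with A or G in the first place and G or T in the third were searched on both strands as repeats spaced by 1, 2 or 5 bases, in the 250 bases before each RefSeq gene start. Repeats of different spacing can share a half-site. Of the 9 genes 7 had such windows in the table used, 12 in all. Aldh1a3 and Crabp2 had no window there, so they were not searched. The Rarb window, at chr14:16575477-16575726 on the minus strand of GRCm38.p6, held a repeat spaced by 5 bases, which spans positions -53 to -37 from the start and is in capitals in the RefSeq sequence, written 5′ to 3′:
Rarb: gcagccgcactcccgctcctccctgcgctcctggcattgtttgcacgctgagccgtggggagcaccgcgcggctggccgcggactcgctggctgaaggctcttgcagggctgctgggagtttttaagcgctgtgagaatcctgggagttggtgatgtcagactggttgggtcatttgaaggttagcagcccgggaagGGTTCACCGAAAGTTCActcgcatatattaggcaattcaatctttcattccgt

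A repeat spaced by 5 bases was found in 29 of all 32851 windows (0.0883%), and repeats spaced by 1 or 2 bases in 0.164% and 0.174% of them. None of the other 11 member windows held any of these repeats, and Aldh1a3 and Crabp2 had no window to search. A match is a description of the letters in the window, and the arrays did not measure binding of a receptor to it.

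Other genes of the pathway were counted by role in a list of 40, all of which were on the array. Of these, 31 were well above background on both arrays, 8 on neither and 1 on the agonist array only. Among the 31, 15 had a log2 ratio above 0 and 16 below 0, their median was -0.04, and 3 were past 2-fold on the higher side and 0 on the lower side. Over all named genes, 37.7% had a ratio above 0, 4.01% were past 2-fold on the higher side and 0.577% on the lower side, and the median was -0.10. This median lay closer to 0 than the shift between scalings, and no direction is read from it.

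The 3 genes past 2-fold each belonged to another step. Rbp7, a cellular retinol binding protein known from endothelial and fat cells, had a signal of 366 with the agonists and 33.9 with the antagonists, giving a log2 ratio of 3.19. Adh1, a class I alcohol dehydrogenase that can oxidise retinol, had signals of 6360 and 1181 and a log2 ratio of 2.19. Rarres2, which encodes the secreted chemoattractant chemerin and is named for its response to retinoids, had signals of 23778 and 3559 and a log2 ratio of 2.50. Rbp7 was near the limit of detection on the antagonist array, as Aldh1a3 was, and its log2 ratio was 1.81 with the normexp correction, whereas Adh1 and Rarres2 were bright on both arrays and had log2 ratios of at least 2.13 and 2.44 in all scalings and with normexp.

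Genes at steps next to those of the members had smaller ratios. Fabp5, which also carries retinoic acid to a nuclear receptor, had signals of 29028 and 16059 and a log2 ratio of 0.61. It lay above 0 in every scaling and with normexp. Rdh10, the main enzyme oxidising retinol to retinal in the embryo, had a log2 ratio of 0.69, and Dhrs3, which reduces retinal back to retinol, had -0.57. Both belong to the list for oxidation and reduction of retinol and retinal, in which 4 of 11 genes were higher, with a median log2 ratio of -0.08 that ranged from -0.13 to 0.20 over the scalings and normexp. Apart from Adh1, these 2 genes were the highest and the lowest of the list. Rdh5, Rdh11 and Rdh12 had log2 ratios between -0.07 and 0.04, and Rdh1 and Rdh14 both had -0.38.

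The other 5 receptor genes had log2 ratios between -0.27 and 0.43. Rarg, at the upper end, had a signal of 3006 with the agonists and 1890 with the antagonists, and the log2 ratio of Rara was -0.19 with its brighter probe and 0.01 with its dimmer one. The ratio of Rara ranged from -0.25 to 0.08 over the scalings and normexp. Cyp26a1, the other hydroxylase with a signal, was well above background on the agonist array only (23.4 units, against 13.7 with the antagonists), and no fold is given because its bound was under 1. Cyp26c1 and the meiotic target Stra8 were not well above background on either array. Rec8, a meiotic cohesin gene on the list of retinoic acid targets, had signals of 470 and 458 and a log2 ratio of -0.20, which was about the size of its spot error (0.20).

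**Figure D3:**
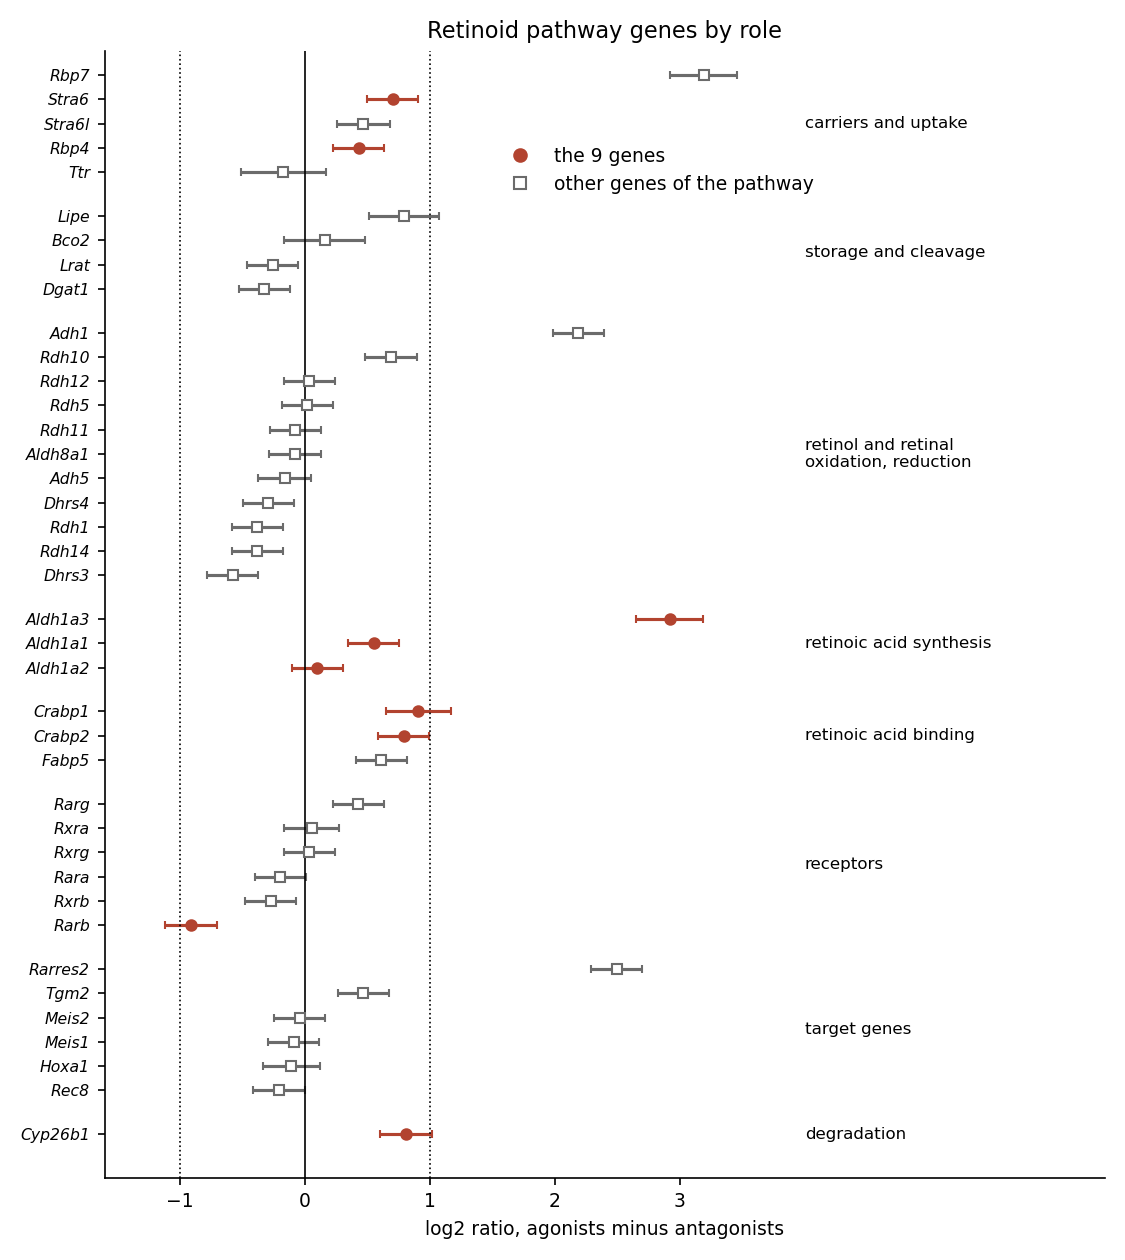
Log2 ratios (agonists minus antagonists) of the 9 genes (filled circles) and of other pathway genes well above background on both arrays (open squares), grouped by role; bars are the software's error and dotted lines mark 2-fold. Rbp7, Aldh1a3, Rarres2 and Adh1 lie beyond 2-fold, Rarb has the lowest ratio, and most of the other genes lie close to 0.

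Markers of ovarian cell types were measured on the same arrays, because several of the 9 genes are known from particular cells. Of 11 surface epithelium markers well above background on the arrays, 11 were higher with the agonists, with a median log2 ratio of 0.99. Their summed level was 71.4 times the 75th percentile of the array with the agonists and 46.0 with the antagonists. Of this sum, 31.8 and 27.2 came from Wt1, whose log2 ratio was 0.23. Each summed level is weighted to the brightest probes and covers all genes of a list on the array. It includes genes not well above background, which the counts and medians leave out. Macrophage markers were higher in 5 of 5 (median 0.76, summed level 11.9 and 9.42), stroma markers in 4 of 5 (median 0.49, 257 and 210.3) and endothelium markers in 4 of 5 (median 0.48, 60.1 and 53.8). Of the endothelium list, Vwf had a log2 ratio of 2.49, with signals of 309 units with the agonists and 46.3 with the antagonists. Cdh5 had a log2 ratio of 0.88, Pecam1 0.48, Egfl7 0.41 and Kdr -0.27. Tek was well above background on the agonist array only, at least 4.10-fold higher there. Granulosa cell markers were higher in 2 of 8 (median -0.47, 100.1 and 130.6), those of theca and interstitial cells in 2 of 5 (median -0.40, 85.7 and 84.9), and oocyte markers in 4 of 6 (median 0.19, 181 and 191). Adipocyte markers were higher in 2 of 3 (median 0.59, summed level 1.30 and 0.319). Most of that sum with the agonists was Fabp4, which endothelial cells also express, with signals of 739 and 44.2 units and a log2 ratio of 3.82. Of the other adipocyte markers, Plin1 had a log2 ratio of 0.59 and Retn -0.79, Cfd was well above background on the antagonist array only, where it was at least 1.43-fold higher, and Adipoq and Lep were not well above background on either array. Of 2 oviduct markers well above background on both arrays 0 were higher (median -0.43, summed level 0.231 and 0.297). Pax8 of the same list was well above background on the agonist array only (23.7 units, against 13.8), with a bound of 1.01-fold. Lhcgr of the theca list was not well above background on either array, and Muc16, Insl3 and Cd68 had no matched probe. The part of these differences in cell type markers in the ratios of the retinoid genes was not tested.

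**Figure D4:**
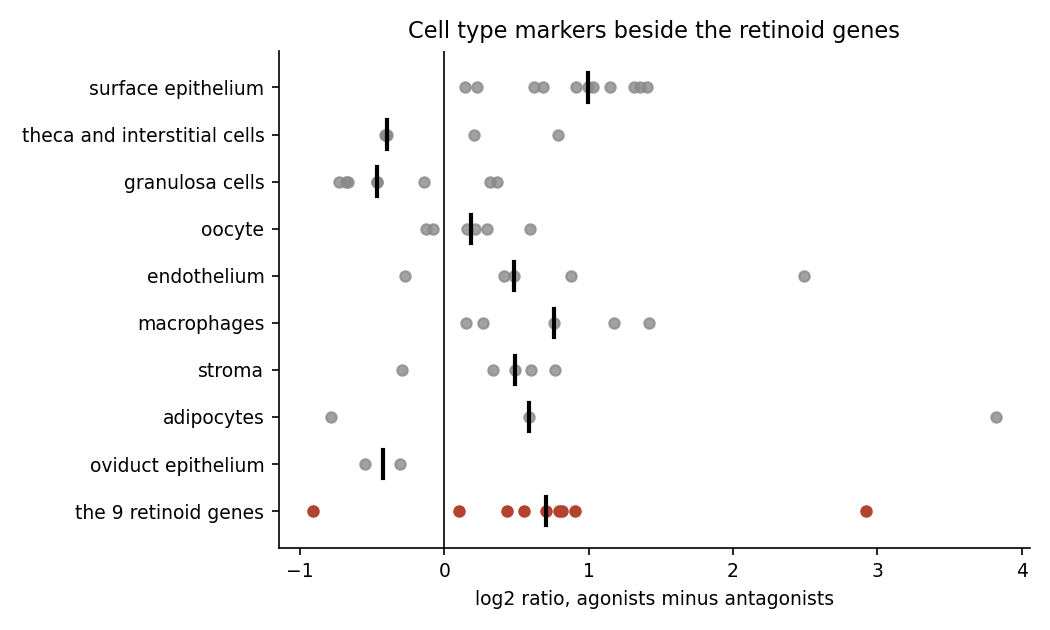
Log2 ratios (agonists minus antagonists) of cell type markers well above background on both arrays, 1 point per gene, with the median of each list as a black bar, and the 9 retinoid genes in the lowest line. The surface epithelium and macrophage lists lie wholly above 0, as do 8 of the 9 retinoid genes, and the granulosa cell list lies mostly below 0.

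Each of the 9 log2 ratios was recomputed under 13 other settings, and 0 of the 117 values had the opposite sign. Not all of these settings could change a member. Every member spot was well above background on both arrays and none was an outlier. Keeping outlier spots or using another filter on dim probes therefore left all 9 values as they were. Averaging over the probes of a gene could change Rarb alone. Scalings by a constant per array moved all genes alike, whereas quantile normalization and loess moved single members by between -0.04 (Aldh1a3, quantile) and 0.16 (Aldh1a1, loess). The background correction moved the dim spots of Aldh1a3 and Crabp1 most.

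**Figure D5:**
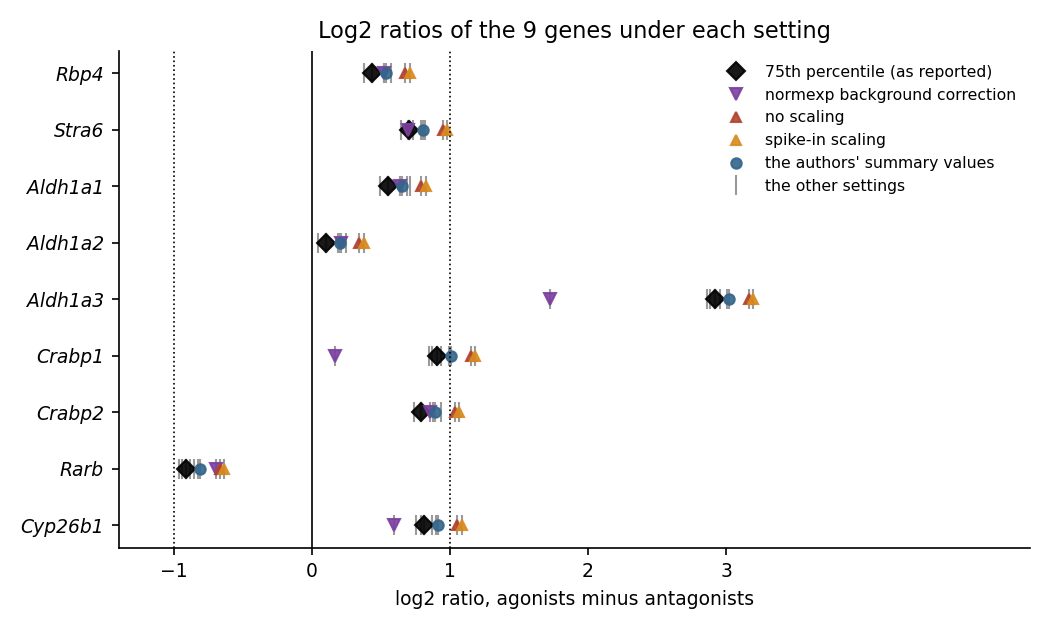
Log2 ratio (agonists minus antagonists) of each of the 9 genes as reported and under each other setting; dotted lines mark 2-fold. Each gene stays on its side of 0, no scaling and spike-in scaling shift all genes up, and normexp moves Aldh1a3 to 1.73 and Crabp1 to 0.17.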

How the data were processed

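Total RNA was labelled with Cy3 and hybridised to Agilent mouse 8 x 60K arrays. The authors deposited, for each array, spot intensity values on a linear scale, after background subtraction in Agilent Feature Extraction 10.10.1.1 and without scaling between arrays, with flags for detection, saturation and outliers. Their summary table equalled the processed signal times a constant per array (1.99 and 2.19). Both arrays were on 1 slide.

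Control spots and outlier spots were left out, log2 of the processed signal was reduced by the array's 75th percentile, and spots of a probe were averaged. Of 55681 probes, counted before outlier spots were left out, 27235 were named through RefSeq transcripts of GRCm38.p6. These served for names only, since the array was designed on mm9. Among probes with an NM accession, 453 of 26536 found no name. A gene was represented by its brightest probe and called at 2-fold. Where 1 array alone detected a probe, the fold was a bound against the lowest detected signal of the other array. The text names the 9 genes, pathway genes at least 2-fold different, the 2 brightest and those that share a role with a member, of which 1 is counted but not reported here. Fabp4 and dimmer probes of pathway genes were singled out after their values were seen. Members and lists were chosen with earlier results of these data known. Precision is limited by the number of arrays.

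Alternatives were other scalings, the authors' values, normexp (offset 50, on the median spot signal), loess (span 0.3), other filters and summaries, and a 4-fold threshold. Python 3.11.15, numpy 2.4.6, pandas 2.3.3, statsmodels 0.14.6, R 4.3.3 and limma 3.58.1 were used, and the calculation was tested on simulated data.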

Additional observations from a re-analysis of the deposited data

How the results depend on the processing

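With 1 array per group, no library could be left out. No paired analysis was possible because a group holds 1 array and nothing was tested. The number of the 9 genes at least 2-fold higher, 1, became 4 with no scaling, 4 under spike-in scaling and 2 on the authors' summary values, and their median log2 ratio, 0.70, became 0.95 and 0.98 in the first pair of these settings. The cause is the shift of all genes: their median log2 ratio was -0.10 as reported, 0.15 with no scaling and 0.18 under spike-in scaling. The number at least 2-fold lower was 0 in every setting. Of 117 log2 ratios of single genes under the alternatives, 97 moved by less than their spot error, 20 by more, and 0 changed sign. The 20 came from no scaling, spike-in scaling and normexp. The 97 include the values with outlier spots kept and with other filters on dim probes, which could not move. Among all named genes, the counts at least 2-fold higher and lower, 612 and 88, were 992 and 39 with no scaling, 1054 and 35 under spike-in scaling, 323 and 33 under normexp, 1349 and 554 when dim probes were not filtered, 994 and 314 with the filter on positive and significant spots, and 104 and 9 with the 4-fold threshold. The count lower was 58 on the authors' values and 139 when dim probes were set to the lowest signal well above background. Signal over background limits the ratios of Aldh1a3, Crabp1 and the dimmer Rarb probe.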
